A study of Mus musculus with 24 samples.

Results

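The HoxC cluster holds 9 homeobox genes on mouse chromosome 15, all transcribed from the + strand and lying, from the 5′ end of the cluster to the 3′ end, in the order Hoxc13, Hoxc12, Hoxc11, Hoxc10, Hoxc9, Hoxc8, Hoxc6, Hoxc5 and Hoxc4. They were taken by symbol from the deposited gene table, keeping for each symbol the transcript with the largest summed signal, and make 9 of the 19409 symbols (20633 transcripts) measured. All 9 were measured, and all 9 passed the filter of at least 10 reads in at least 3 libraries. Of these, 2 (Hoxc13 and Hoxc12) would have passed on the untreated libraries alone, and the other 7 passed only through OHT-treated libraries.

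Total RNA was measured by calibrated RNA-seq, in which a fixed number of Drosophila SG4 cells is added to the mouse cells so that libraries can be scaled to cell number. Both lines are E14 mouse embryonic stem cells (ESCs) that carry Rosa26::ERT2-Cre, a tamoxifen-inducible recombinase, and each was either left untreated or exposed for 72 h to 4-hydroxytamoxifen (OHT) at 800 nM, with 3 replicates of each of the 4 conditions. PRC1CKO cells (clone B9) are Ring1a-/-; Ring1bfl/fl, so OHT removes RING1B from cells that already lack RING1A. PRC1CPM cells (clone 41) carry Ring1a I50A/D53K and a Ring1b allele that OHT switches from wild type to I53A/D56K, so the complex remains but loses its ubiquitin ligase activity. Each line is a single clone, and no OHT-treated line with intact Ring1b was among the samples used here, so an effect of OHT itself and the loss of PRC1 or its activity cannot be told apart. The libraries held 14668159 to 27016156 reads on transcripts.

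Hox genes encode homeodomain transcription factors that give position along the body axis, and the genes at the 3′ end of a cluster are usually switched on earlier and further forward in the embryo than those at the 5′ end. Hoxc4 to Hoxc8 act in the neck, forelimb and chest levels, Hoxc9 marks the thoracic spinal cord, Hoxc10 and Hoxc11 the lumbar and sacral levels and the hindlimb, and Hoxc13 acts in hair and nails. In ESCs the Hox clusters lie in broad Polycomb domains, where PRC1 places ubiquitin on histone H2A and PRC2 methylates histone H3, and the genes are kept at a low level. The comparison asks how far each gene along the cluster rises when PRC1 is removed, and how far when only its catalytic activity is lost.

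The 9 gene bodies span chr15:102921131-103036852 (GRCm38, 115.722 kb), of which 31.1% lies within the 9 bodies themselves. Members resemble each other most in the homeobox, which lies in exon 2 of every member but Hoxc9, where it lies in exon 3. The 48-base stretches shown here encode part of the recognition helix, the piece of the homeodomain that reads DNA, and are printed for 4 members spread along the cluster because they are the kind of sequence in which reads of different members could be confused. Capitals mark the 12 bases by which the search found the helix.

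Hoxc13: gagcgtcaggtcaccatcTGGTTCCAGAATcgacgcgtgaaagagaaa
Hoxc11: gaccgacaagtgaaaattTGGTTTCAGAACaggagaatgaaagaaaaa
Hoxc8: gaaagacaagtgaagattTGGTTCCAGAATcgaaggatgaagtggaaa
Hoxc4: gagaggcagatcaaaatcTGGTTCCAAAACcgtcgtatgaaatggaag

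They lie at chr15:102927333-102927380, chr15:102956603-102956650, chr15:102992694-102992741 and chr15:103035786-103035833 (+ strand). Over the 180 bases of the homeobox, identity between members ran from 48.3% (Hoxc5 and Hoxc13) to 77.8% (Hoxc5 and Hoxc6). The longest run of exonic bases that any member shared exactly with another Hox gene body was 53 bases, between Hoxc8 and Hoxa11, and for the other members it was 18 to 31 bases, all shorter than a sequenced read. Only uniquely aligned reads were counted by the authors. Other annotated genes overlap 3 of the bodies: Gm36878 on the opposite strand within Hoxc9, Mir615 within Hoxc5, and Gm30528 on the opposite strand across the whole of Hoxc4. The sources do not state whether counting used the strand, so reads of Hoxc9 and Hoxc4 are uncertain to that extent.

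In untreated cells of both lines the highest levels per kb of gene body lay at the 5′ end. In PRC1CKO cells Hoxc13 had 11.8 ± 3.79 normalised reads per kb and Hoxc12 10.2 ± 4.69 (SD, n = 3), a difference smaller than their spread, and both lay above every library of Hoxc4, the next gene, at 3.14 ± 1.496. The remaining 6 genes had means of 0.590 (Hoxc5) to 2.15 (Hoxc6) per kb, and no neighbours in that order were separated beyond their spread. Replicate 1 of Hoxc6, at 5.78 per kb, lay above the lowest library of Hoxc12, at 5.08, so Hoxc12 was not separated from every other gene. In PRC1CPM cells Hoxc12 had 8.78 ± 3.90 and Hoxc13 6.92 ± 1.80 per kb (SD, n = 3), again not separated from each other, and both above the other 7 genes, which had means of 0.271 (Hoxc6) to 1.82 (Hoxc11).

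These low levels rest on few reads. From Hoxc11 to Hoxc4, the 42 untreated values were 0 to 14 reads per gene and library, against 7 to 101 reads for Hoxc13 and Hoxc12. Of the read values of 1 to 20 in the whole table, 80.2% were even numbers, so the mates of a read pair were for the most part counted separately, and counting intervals are given here on read pairs. Hoxc6 was at 0 reads in replicates 1 and 3 of untreated PRC1CPM cells, which allows up to 7.67 and 8.13 normalised reads (3 read pairs). Intervals and floors cover counting error only. In bulk RNA, fewer cells expressing a gene and less RNA in each cell cannot be told apart.

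**Figure D1:**
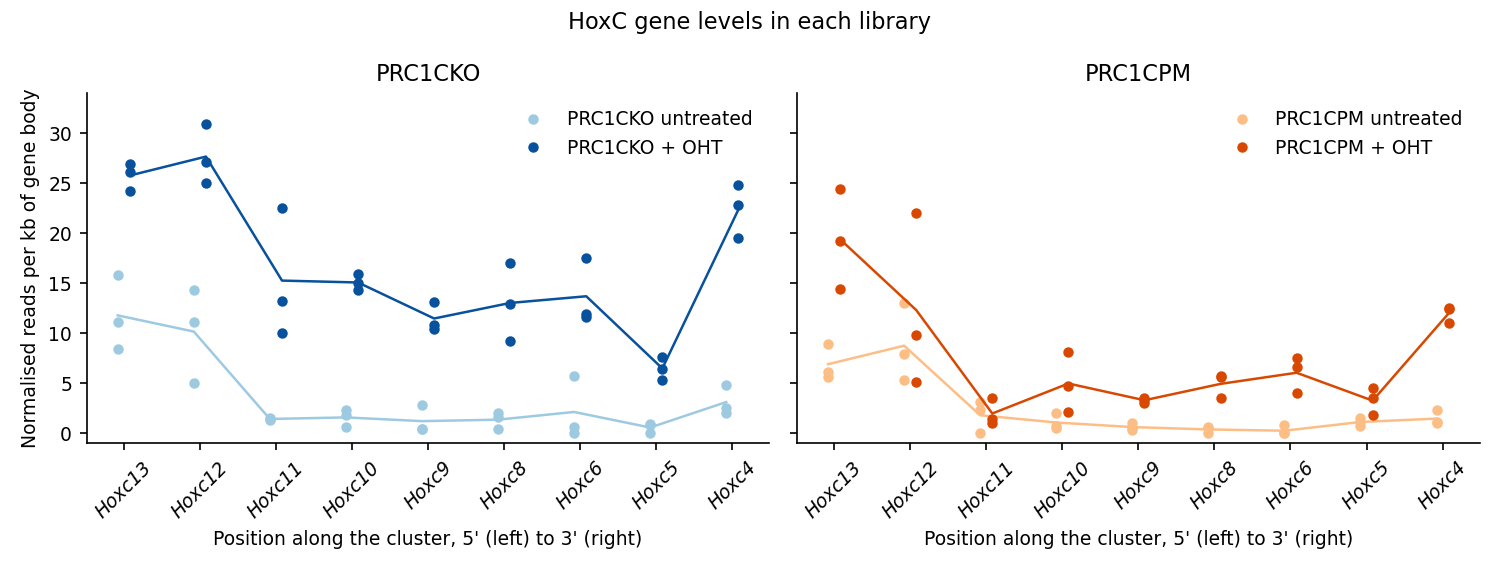
Normalised reads per kb of gene body (y axis) for the 9 HoxC genes in their order along the cluster (x axis), untreated and OHT-treated, with 1 point per library and lines through the means of 3 libraries. After OHT the PRC1CKO means run from 6.502 (Hoxc5) to 27.7 (Hoxc12), and the PRC1CPM means from 1.99 (Hoxc11) to 19.4 (Hoxc13).

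The engineered genes were read before the cluster. Ring1, which encodes RING1A, had a mean of 227 normalised reads in untreated and 254 in OHT-treated PRC1CKO cells, and 162 and 140 in PRC1CPM cells. Rnf2, which encodes RING1B, had 1526 and 1546 in PRC1CKO and 1696 and 1511 in PRC1CPM cells. Neither was called changed after OHT in either line (limma, adjusted p 0.75 to 0.963), and all 12 libraries held reads of both. In PRC1CKO cells the first exons of Ring1 are deleted, yet its count was no lower than in PRC1CPM cells, where the gene is whole. The table gives 1 count per transcript and none per exon, so neither gene's level shows the engineered exons, and the labels could not be checked in this way.

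After OHT, every HoxC gene rose in PRC1CKO cells: 9 of 9 were called higher (limma on log2(normalised reads + 1), with a fold change over 1.5 and an adjusted p below 0.05), against 16.5% of the 16940 transcripts tested. Their median log2 change was 3.14, beside 0.12 for all transcripts. In PRC1CPM cells 6 of 9 were called higher, against 13.1% of transcripts tested (2226), with a median of 2.00 beside 0.10. Without replicate 1 of the treated PRC1CPM libraries 1439 transcripts and 5 HoxC genes were called higher in that line. The 6 were Hoxc13, Hoxc10, Hoxc9, Hoxc8, Hoxc6 and Hoxc4. The OHT-treated libraries lay wholly above the untreated ones for all 9 genes in PRC1CKO cells, where 22.1% of transcripts did so, and for 7 in PRC1CPM cells, where 18.7% did. Since 7 of the 9 passed the filter only through OHT-treated libraries, these counts are in part set by that selection. With no filter, limma called 8 HoxC genes higher in PRC1CKO cells, as it did 2658 of 19791 transcripts. In PRC1CPM cells it then called 6 HoxC genes higher, and 2081 of all transcripts. All changes are differences of mean log2(normalised reads + 1), where the added 1 draws the log2 ratio of low values toward 0, and they need not equal the ratio of group means. The call of Hoxc12 in PRC1CKO cells was the least secure, since its adjusted p of 0.031 became 0.051 with no filter on low counts, 0.058 with a pseudocount of 0.1 and 0.068 without the gDNA correction of the spike-in. It was also lost without replicate 1, 2 or 3 of the treated or replicate 2 or 3 of the untreated PRC1CKO libraries (adjusted p 0.056 to 0.19).

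At the 5′ end, Hoxc13 had 122, 64.6 and 85.4 normalised reads in the untreated and 200.7, 207 and 187 in the OHT-treated PRC1CKO libraries. In PRC1CPM cells it had 69.0, 47.1 and 43.4 before and 188, 111 and 148 after. Every treated library was above every untreated one of its line. This gene had the highest mean of normalised reads in the cluster in each condition, before division by length. Its log2 change was 1.17 (SE 0.33, limma adjusted p 0.0070) in PRC1CKO cells against 1.47 (SE 0.33, adjusted p 0.00084) in PRC1CPM. Leaving out replicate 2 of the untreated PRC1CKO libraries ended its call in that line (log2 change 0.95, adjusted p 0.067).

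Hoxc12, the neighbour of Hoxc13 and a gene of the most posterior levels, had 23.8, 8.47 and 18.6 normalised reads in untreated and 45.2, 41.7 and 51.5 in OHT-treated PRC1CKO cells, with no overlap. In PRC1CPM cells it had 8.95, 13.2 and 21.7 before and 36.7, 8.50 and 16.4 after OHT. There the groups overlapped, and replicate 1 alone stood high among the treated libraries. The log2 change was 1.496 (SE 0.52) in PRC1CKO and 0.32 (95% interval -0.72 to 1.36, limma adjusted p 0.84) in PRC1CPM, where it was -0.20 without replicate 1 of the treated libraries.

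Hoxc11, a gene of the lumbar and sacral levels, was the member called lower in treated PRC1CPM than in treated PRC1CKO cells. It had 2.98, 3.08 and 3.38 normalised reads in untreated and 28.9, 49.1 and 21.8 in OHT-treated PRC1CKO cells. In PRC1CPM cells it had 5.11, 0 and 6.78 before and 7.72, 3.09 and 2.19 after OHT, so that treated and untreated libraries overlapped and no treated PRC1CPM library reached the lowest treated PRC1CKO library. Its log2 change was 2.97 (SE 0.71, limma adjusted p 0.0011) in PRC1CKO and 0.42 (95% interval -0.999 to 1.84, adjusted p 0.85) in PRC1CPM. The PRC1CPM value was -0.0037 without replicate 1 of the treated libraries and -0.51 without replicate 2 of the untreated ones, the library at 0. The summed PRC1CPM reads were 9 before and 14 after, a ratio of 1.24 with an exact (Clopper-Pearson) 95% interval of 0.304 to 4.45 on read pairs.

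Hoxc10, a gene of lumbar motor neurons and the hindlimb, had 11.9, 9.23 and 3.38 normalised reads before and 76.8, 73.1 and 81.1 after OHT in PRC1CKO cells. In PRC1CPM cells it had 10.2, 3.77 and 2.71 before and 41.5, 23.97 and 10.95 after. The treated PRC1CPM libraries were widely spread but stayed above the untreated ones, and the log2 change was 2.00 (SE 0.55, limma adjusted p 0.0071) against 3.23 (SE 0.55, adjusted p 6.35e-06) in PRC1CKO. The PRC1CPM call was lost without replicate 1 of the treated libraries (adjusted p 0.10) or replicate 3 of the untreated ones (0.054).

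Hoxc9, which sets the thoracic identity of motor neurons, had 20.9, 3.08 and 3.38 normalised reads in untreated and 97.6, 77.8 and 80.3 in treated PRC1CKO cells. In PRC1CPM cells it had 7.67, 3.77 and 2.71 before and 25.1, 22.4 and 26.3 after, a narrow range that lay between the untreated libraries and the treated PRC1CKO libraries. The log2 changes were 3.55 (SE 0.55, limma adjusted p 1.05e-06) and 2.25 (SE 0.55, adjusted p 0.0022). Replicate 1 of untreated PRC1CKO cells stood apart for this gene, and for Hoxc6 at 13.4 against 1.54 and 0. Without that library all 9 members were still called higher in PRC1CKO cells and 6 in PRC1CPM cells, and the change of Hoxc9 was 4.34.

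Toward the 3′ end, Hoxc8, a gene of the brachial spinal cord and chest, had 5.96, 7.70 and 1.69 normalised reads before and 63.3, 34.2 and 48.0 after OHT in PRC1CKO cells, and 2.56, 1.88 and 0 before and 21.2, 20.9 and 13.1 after in PRC1CPM cells. The groups of each line did not overlap. The log2 changes, 3.14 and 3.13 (SE 0.62 for each), were close between the lines, while the treated libraries of PRC1CPM lay below those of PRC1CKO. In PRC1CPM cells the Hoxc8 change rests on 4 reads before and 61 after, a ratio of 12.1 (exact 95% interval 3.14 to 106). The PRC1CKO ratio was 9.58 (4.64 to 22.9). Hoxc6, a forelimb-level gene, had 40.7, 27.8 and 27.0 normalised reads in treated PRC1CKO cells and 15.4, 9.28 and 17.5 in treated PRC1CPM cells. Its log2 changes were 3.28 and 3.36 (SE 0.73 for each). The PRC1CKO value was 4.34 without replicate 1 and 2.42 without replicate 3 of the untreated libraries, and it was called in both cases. In PRC1CPM cells the change rests on 2 reads before and 44 after, a ratio of 17.5 with an exact 95% interval of 2.83 to 723.

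Hoxc5, also a gene of the forelimb levels, had 2.98, 3.08 and 0 normalised reads before and 26.2, 22.2 and 18.3 after OHT in PRC1CKO cells. In PRC1CPM cells it had 2.56, 3.77 and 5.42 before and 15.4, 6.19 and 12.05 after. The treated libraries lay above the untreated ones in each line, and the log2 change was 3.18 (SE 0.66, limma adjusted p 0.00018) in PRC1CKO and 1.27 (95% interval -0.06 to 2.61, adjusted p 0.25) in PRC1CPM. At the 3′ end, Hoxc4, a gene of the neck levels, had 11.9, 6.16 and 5.07 before and 56.0, 61.1 and 48.0 after in PRC1CKO cells, and 2.56, 5.65 and 2.71 before and 27.0, 30.9 and 30.7 after in PRC1CPM cells. Its replicates were tight in each treated group, and its log2 changes of 2.76 and 2.78 (SE 0.52 for each) were called in both lines.

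**Figure D2:**
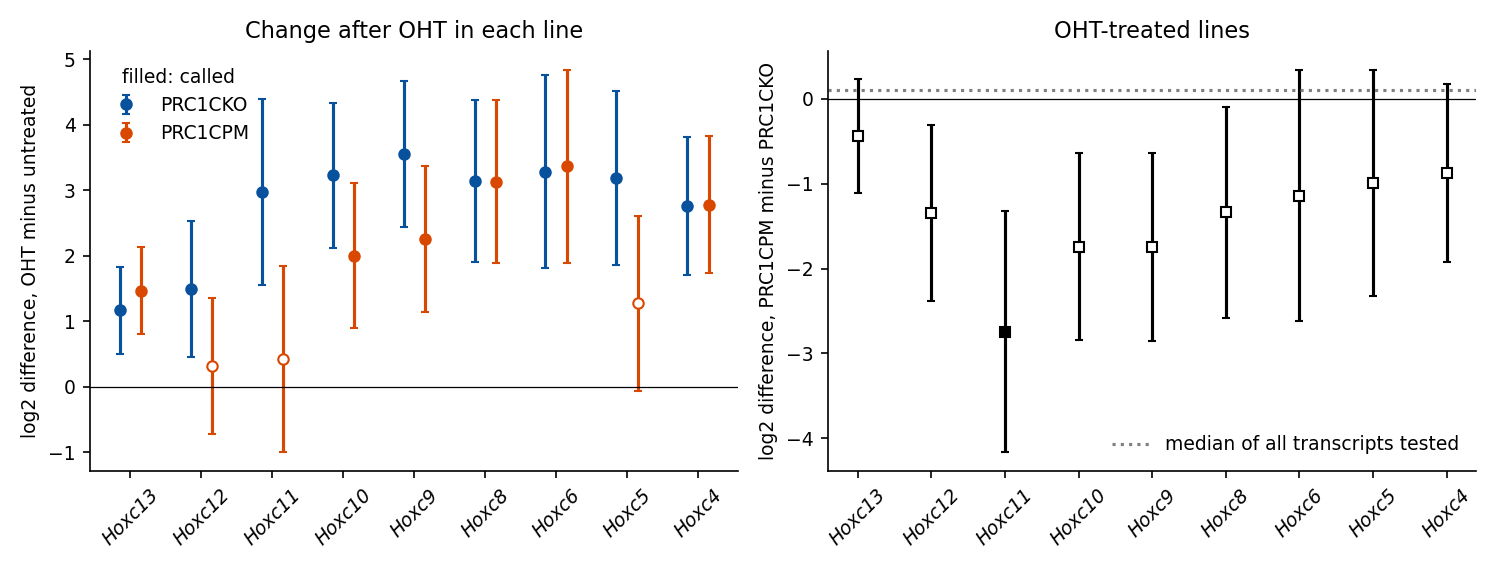
Left, log2 change after OHT (y axis) for each HoxC gene in cluster order (x axis) in the 2 lines, with 95% confidence intervals from limma over 3 libraries per condition and filled symbols for called genes. Right, log2 difference of OHT-treated PRC1CPM minus OHT-treated PRC1CKO cells, where all 9 points lie below 0 and the lowest is Hoxc11 at -2.74.

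The OHT-treated lines were then compared with each other. All 9 HoxC genes had lower means in PRC1CPM than in PRC1CKO cells, with log2 differences of -0.44 (Hoxc13) to -2.74 (Hoxc11) and a median of -1.34, beside a median of 0.10 for all transcripts, of which 35.1% lay below 0. For 8 members every PRC1CPM library was below every PRC1CKO library, where 4.35% of transcripts were, and Hoxc13 was the member whose groups overlapped. Hoxc11 was the 1 member called lower (limma adjusted p 0.027), against 0.218% of transcripts, and 5 members had an unadjusted p under 0.05, as did 10.99% of transcripts. Hoxc10 at -1.74 (SE 0.55) and Hoxc9 at -1.75 (SE 0.55) came next, each with an adjusted p of 0.10. With the replicate number as a block, 4 members were called lower (limma), Hoxc11, Hoxc9 (adjusted p 0.0032), Hoxc10 (0.0032) and Hoxc12 (0.016), where 232 transcripts were called lower in place of 37. Without the block, 17 to 19 transcripts were called lower when any treated library but replicate 1 of PRC1CPM was left out, and 69 to 78 without replicate 1 or 2 of either untreated line. edgeR on the recovered reads called 2 members (Hoxc11 and Hoxc9), and DESeq2 called 3 (also Hoxc10). The Hoxc11 call was lost without replicate 1 (adjusted p 0.061) or 2 (0.24) of treated PRC1CKO cells or replicate 2 (0.082) or 3 (0.13) of treated PRC1CPM cells, and with a pseudocount of 0.1 (0.28).

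By position, the differences between the treated lines were smallest at the ends, -0.44 at Hoxc13 and -0.87 at Hoxc4, and largest from Hoxc11 to Hoxc9. With a library left out, Hoxc13 ran from -0.62 to -0.25 and Hoxc12 from -1.87 to -0.87. Hoxc5 ran from -1.25 to -0.65 and Hoxc4 from -0.965 to -0.79. The 95% intervals of neighbouring genes overlapped throughout, as for Hoxc11 (-4.16 to -1.32) and Hoxc12 (-2.39 to -0.31). Whether the change after OHT itself differed between the lines was tested by the interaction of line and treatment. limma called 0 of 9 HoxC genes, with 4 of all transcripts called (0.0236%), and edgeR and DESeq2 also called 0. At an unadjusted p under 0.05 there were 2, beside 2.93% of transcripts, Hoxc11 with an interaction of -2.55 (SE 1.00) and Hoxc5 with -1.91 (SE 0.94). The Hoxc5 value was -1.24 without replicate 3 of the untreated PRC1CKO libraries. The intervals were wide, -1.76 to 1.75 for Hoxc8.

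The untreated lines give the baseline of that comparison. No HoxC gene was called different between them by limma, edgeR or DESeq2, against 2.69% of transcripts (limma), and the groups of all 9 overlapped. Yet 8 of 9 had a lower fitted mean in untreated PRC1CPM than in untreated PRC1CKO cells, where 32.0% of all transcripts lay below 0. Among the 8, Hoxc11 had a higher mean of normalised reads in PRC1CPM (3.96 against 3.15). The median log2 difference of the 9 was -0.51, beside 0.12 for all transcripts. That median was -0.20 without replicate 1 and -0.87 without replicate 2 of the untreated PRC1CKO libraries, beside 0.30 and 0.02 for all transcripts. Of the 9, 2 had an unadjusted p under 0.05, Hoxc13 (-0.74, SE 0.33) and Hoxc8 (-1.33, SE 0.62), a share near the 14.1% of all transcripts. Hoxc13 was called with TMM scaling in place of the spike-in (limma adjusted p 0.0080) and with the replicate number as a block (0.013). Summed over the cluster, the signal was 216, 107 and 121 normalised reads in untreated and 635, 594 and 563 in treated PRC1CKO cells, and 109, 81.0 and 85.4 before and 378, 237 and 277 after in PRC1CPM cells. Treated PRC1CPM cells thus lay above all untreated libraries and below all treated PRC1CKO libraries.

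Hoxc13 gave 62.5% ± 7.27 of that sum in untreated PRC1CKO cells and 33.2% ± 1.66 after OHT, without overlap, and 57.5% ± 6.39 and 50.1% ± 3.16 in PRC1CPM cells, where the groups overlapped (SD, n = 3). In treated PRC1CKO cells the order per kb was Hoxc12 (27.7), Hoxc13 (25.8), Hoxc4 (22.4), Hoxc11 (15.3), Hoxc10 (15.1), Hoxc6 (13.7), Hoxc8 (13.1), Hoxc9 (11.5) and Hoxc5 (6.502), and the last step was the one separated beyond the spread. In treated PRC1CPM cells it was Hoxc13 (19.4), Hoxc12 (12.3), Hoxc4 (12.02), Hoxc6 (6.07), Hoxc10 (4.99), Hoxc8 (4.96), Hoxc9 (3.32), Hoxc5 (3.28) and Hoxc11 (1.99), with a separation only between Hoxc4 and Hoxc6. These orders rest on the length of the gene body, of which 23.2% (Hoxc9) to 80.7% (Hoxc4) is exon. Per kb of exon, a scale added after the data were seen, Hoxc13 was the highest in both treated lines, at 81.5 ± 4.33 in PRC1CKO and 61.3 ± 15.8 in PRC1CPM (SD, n = 3), separated from the next gene in each. On that scale Hoxc4 in treated PRC1CKO cells (27.8) lay below Hoxc9 (49.6), Hoxc12 (47.9), Hoxc10 (40.2) and Hoxc11 (36.4), and in untreated PRC1CKO cells Hoxc12 was no longer separated from the gene after it.

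CpG density about the transcription start, a feature of Polycomb targets, varied along the cluster. The kilobase centred on each start held 26 (Hoxc6) to 79 (Hoxc12) CpG dinucleotides, with a median of 49 against 59 over 15789 symbols tested, so 4 members lay above and 5 below the median. The counts were 76, 79 and 65 for Hoxc13, Hoxc12 and Hoxc11, and 26, 46 and 30 for Hoxc6, Hoxc5 and Hoxc4. Of the 9, the RefSeq promoter table matched Hoxc4, whose 250 bases before the start (chr15:103034145-103034394, + strand, GRCm38.p6) are shown as the 3′ boundary gene of the cluster, called higher in both lines, with CpG dinucleotides in capitals.

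Hoxc4: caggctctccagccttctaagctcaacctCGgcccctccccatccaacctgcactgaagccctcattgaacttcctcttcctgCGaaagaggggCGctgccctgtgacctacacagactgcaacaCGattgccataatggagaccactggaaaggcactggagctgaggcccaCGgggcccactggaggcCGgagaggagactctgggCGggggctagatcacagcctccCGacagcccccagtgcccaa

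It holds 8 CpG dinucleotides, where the median over 32851 promoters was 6, and 92.1% of promoters held at least 1 (motif CG, which reads the same on either strand).

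No tested gene beyond the ends of the cluster was called changed, but with 8 tested a count of 0 is near the share of all transcripts called. The table holds 1 other transcript inside the span, Hotair, the long non-coding RNA transcribed against the Hox genes between Hoxc12 and Hoxc11, and it fell below the filter. Hotair had 0 reads in the 3 untreated PRC1CKO libraries and 6, 4 and 12 after OHT, and 0, 0 and 2 before and 2, 6 and 4 after in PRC1CPM cells. Of the 5 nearest genes on each side, 8 of 10 were tested, and limma, edgeR and DESeq2 called 0 of them after OHT in either line. Of all transcripts, limma called 16.5% higher and 3.09% lower in PRC1CKO, and 2226 higher and 237 lower of 16940 in PRC1CPM cells. At an unadjusted p under 0.05 there was 1 flanking gene in PRC1CKO and 0 in PRC1CPM, beside 28.1% and 22.9% of transcripts. The log2 changes of the 8 ran from -0.55 to 0.60 in PRC1CKO and from -0.35 to 0.88 in PRC1CPM cells. The nearest tested genes were Calcoco1, 199 kb beyond Hoxc13, with a log2 change of 0.09 in PRC1CKO, and D930007P13Rik, 86.2 kb beyond Hoxc4, with -0.55. Cbx5, which encodes the heterochromatin protein HP1α, lay 155 kb beyond Hoxc4 and had -0.52 in PRC1CKO (adjusted p 0.095), and the least expressed tested neighbour, Npff, had the highest value of the flanks in each line (0.60 and 0.88).

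**Figure D3:**
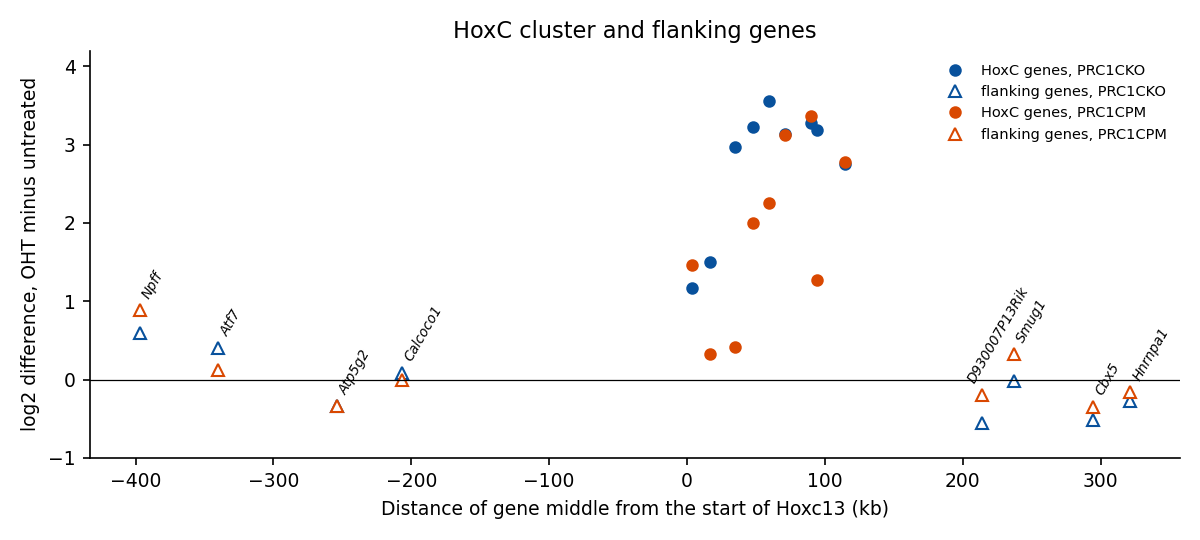
Log2 change after OHT (y axis) of the 9 HoxC genes (filled circles) and the 8 tested flanking genes (open triangles) in each line against the distance of the gene's middle from the start of Hoxc13 in kb (x axis). Within the cluster the PRC1CKO values are 1.17 to 3.55, while no flanking gene passes 0.88 in either line. In PRC1CPM cells Hoxc12 (0.32) and Hoxc11 (0.42) lie within the range of the flanking genes.

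The other Hox clusters were measured in the same libraries. Of the 30 HoxA, HoxB and HoxD genes, 28 were tested, and limma called 22 higher after OHT in PRC1CKO and 25 in PRC1CPM cells (median log2 change 3.49 and 2.86), where edgeR and DESeq2 each called 22 and 24. In PRC1CKO cells these were 8 of 11 HoxA, 5 of 8 HoxB and 9 of 9 HoxD genes, and in PRC1CPM cells 11, 5 and 9. Thus in PRC1CPM cells limma called all tested HoxA and HoxD genes (edgeR and DESeq2 called 10 of 11 HoxA), while 3 of the 9 HoxC genes and 3 of the 8 HoxB genes were not. A difference between clusters was not tested. In treated cells 27 of the 28 were lower in PRC1CPM than in PRC1CKO, with a median of -0.95, and limma called 2, Hoxa10 (-1.94) and Hoxa11 (-2.47). edgeR called 4 of the 28, 2 of them HoxD genes, DESeq2 called 6, 4 of them HoxD genes, and limma with the replicate block called 9. Without any 1 of the 6 treated libraries limma called 0, and 9 had an unadjusted p under 0.05 with all libraries.

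The paralogues, the genes of the same position in other clusters, were compared from the 5′ end. In PRC1CKO cells Hoxc13 changed by 1.17 on the log2 scale, where Hoxa13 changed by 4.94 and Hoxd13 by 4.73, and Hoxb13 had 1.202 (adjusted p 0.10). Untreated PRC1CKO cells held 90.7 ± 29.1 normalised reads of Hoxc13, against 0 reads of Hoxa13 and 13.2 ± 5.41 normalised reads of Hoxd13 (SD, n = 3), and with Hoxa13 at 0 its fitted change depends on the pseudocount. In group 12, Hoxc12 had 1.496 and Hoxd12 3.97.

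In group 11, Hoxc11 rose by 2.97 in PRC1CKO cells, Hoxa11 by 6.53 and Hoxd11 by 6.64, where Hoxa11 was at 0 reads in untreated PRC1CKO cells. In PRC1CPM cells Hoxa11 (2.82) and Hoxd11 (3.53) were called and Hoxc11 (0.42) was not. The treated lines differed by -2.47 at Hoxa11, -2.74 at Hoxc11 and -1.78 at Hoxd11. In group 13 they differed by -0.24 at Hoxa13, -0.44 at Hoxc13 and -0.99 at Hoxd13, and by 0.08 at Hoxb13. In group 10 the line differences were -1.94, -1.74 and -2.16 for Hoxa10, Hoxc10 and Hoxd10. In group 9, Hoxc9 had -1.75 and Hoxa9 -0.95, Hoxd9 -1.07 and Hoxb9 -0.26. The comparisons of each line and of the treated lines share libraries, so these values are given side by side.

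**Figure D4:**
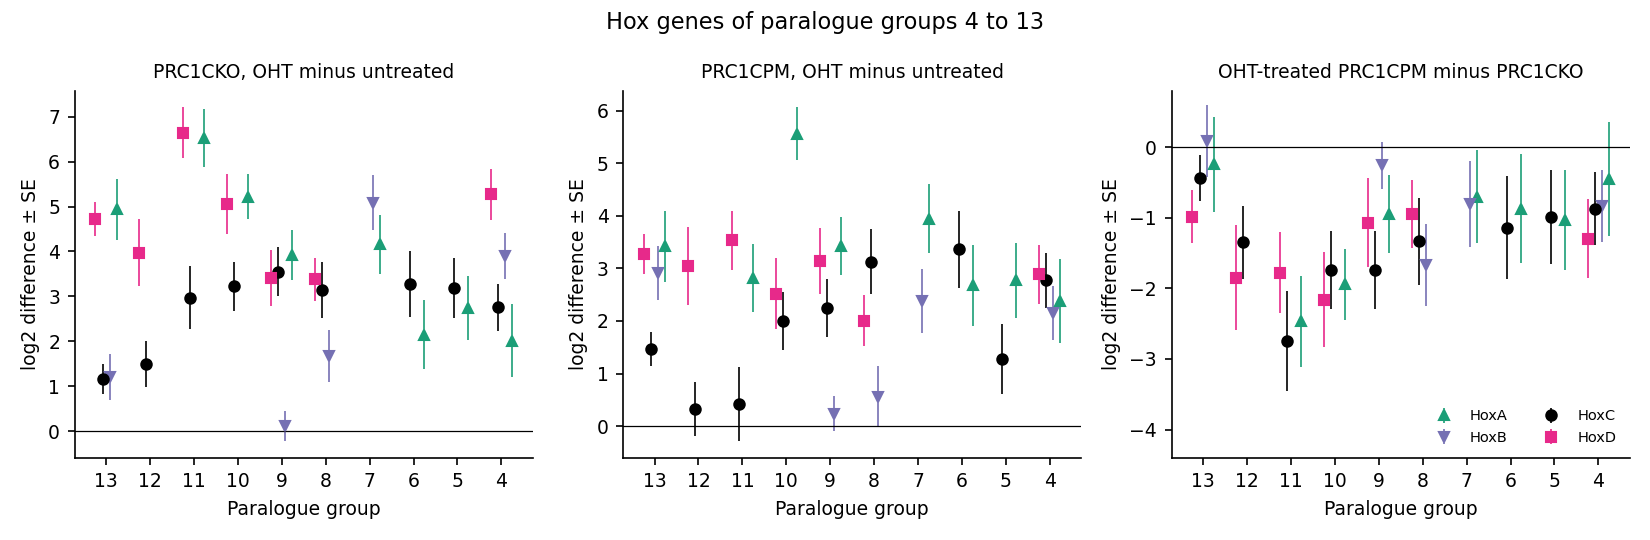
Log2 differences ± SE from limma (y axes) of the tested Hox genes of paralogue groups 13 to 4 (x axes, 5′ to 3′) in the 4 clusters, for each line after OHT and for the treated lines. HoxC genes (black circles) lie lowest among their tested paralogues at groups 13 to 10 in each line, and in the right panel Hoxc11 is lowest of all at -2.74.

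Genes that act on or with HoxC genes were taken from lists. These lists and those of the cell type markers were chosen with earlier results of these data known, so their counts are descriptive. The limma counts of these lists and of the cell type markers stand beside 16.5% of all transcripts called higher and 3.09% lower in PRC1CKO, and 13.1% called higher in PRC1CPM cells. Of 9 activators of Hox genes and signals, 8 were tested. In PRC1CKO cells 2 rose and 1 fell, and in PRC1CPM cells 3 rose (2 with edgeR and 2 with DESeq2). With the replicate number as a block, limma called 5 of the 8 changed in PRC1CKO cells. Cdx1, a caudal homeobox activator of Hox clusters, rose by 1.85 and 3.12 on the log2 scale, Rarb, a retinoic acid receptor, rose by 1.01 and 1.31, Cdx2 rose by 1.71 in PRC1CPM cells, and Rara, another retinoic acid receptor, fell by 0.84 in PRC1CKO cells. Of 9 cofactors of the TALE class, which bind DNA together with Hox proteins, 4 rose in PRC1CKO and 3 in PRC1CPM cells. DESeq2 and limma with the replicate block each called 4 in PRC1CPM cells. Meis1 rose by 3.93 and 2.84, Meis2 by 2.98 and 1.27 and Pknox2 by 1.08 and 1.05, while Meis3 had 1.09 (called) and 0.99 (adjusted p 0.057). Meis2 was also called lower in treated PRC1CPM than in treated PRC1CKO cells, by -2.84, as were 0.218% of transcripts.

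Of 8 tested genes that act with or downstream of HoxC proteins in motor neurons, 7 rose in PRC1CKO and 6 in PRC1CPM cells, where 16.5% and 13.1% of all transcripts did. In PRC1CKO cells edgeR called 6 and DESeq2 5. They include Aldh1a2 (2.42 and 2.00), a retinoic acid synthase of limb-level motor columns, Isl1 (3.05 and 1.47) and Mnx1 (3.15 and 1.97), general motor neuron factors, and Ret (2.32 and 1.88), a receptor for GDNF. Foxp1, the Hox cofactor of limb motor neurons, had -0.01 and 0.05 and was the most abundant of the list, with a mean of 3555 normalised reads. Of the hair genes downstream of Hoxc13, 4 of 9 were in the table and 1 was tested, Foxn1, which had 0.67 and 1.01 (adjusted p 0.62 and 0.46) at a mean of 9.55 normalised reads. Krt35, Krt36 and Krt84 were near 0 in all conditions. Whether any change in these motor neuron and hair genes follows from the HoxC genes was not tested.

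Markers of cell types were read beside the cluster. Of 10 ESC markers, the 9 in the table were expressed in every condition, led by Tdgf1 at a mean of 18030 normalised reads. Their sum was 66240 to 100202 in untreated and 58579 to 67842 in treated PRC1CKO cells, and 56189 to 80628 and 43172 to 75841 in PRC1CPM cells. In PRC1CKO cells 2 fell, Sox2 (-0.89) and Utf1 (-0.79), and in PRC1CPM cells limma, edgeR and DESeq2 called 0 (1 at an unadjusted p under 0.05).

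Spinal cord markers moved with the HoxC genes in part. Of 10, 6 rose in PRC1CKO and 6 in PRC1CPM cells, and 2 fell in PRC1CKO, and DESeq2 called 7 in that line in place of 8. Of the 6, 5 are transcription factors of progenitors: Olig2 (4.35 and 3.69), Nkx6-1 (4.26 and 2.65), Pax6 (3.06 and 1.28), Neurog2 (2.66 and 2.53) and Irx3 (2.55 and 1.52), and the other is Map2 (0.79 and 0.66), a neuronal cytoskeleton gene. Those that fell in PRC1CKO cells are also neuronal cytoskeleton genes, Tubb3 (-0.71) and Stmn2 (-0.59), the latter the most abundant of the list at 4678 normalised reads. The summed level of the list was 7207 to 11316 and 6553 to 8417 in untreated and treated PRC1CKO cells, and 6916 to 8974 and 5598 to 9273 in PRC1CPM cells, so the sum did not separate the groups. None was at 0 in all libraries.

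Fibroblast markers, 8 of 10 tested, gave 3 higher and 1 lower in PRC1CKO and 2 higher in PRC1CPM cells, Twist2 (2.31 and 2.16) among them, beside 16.5%, 3.09% and 13.1% of all transcripts. edgeR called 5 in PRC1CKO and 3 in PRC1CPM cells, and limma with the replicate block called 5 in PRC1CKO and 4 in PRC1CPM cells. Col1a1 was the most abundant, with a mean of 3978 normalised reads, and the untested Dcn and Lum had means of at most 7.63 in any condition. Col1a1 was called higher in treated PRC1CPM than in treated PRC1CKO cells (1.44), as were 1.25% of transcripts, the opposite direction to the HoxC genes. That call was made by edgeR but not by DESeq2, and it was lost without replicate 1 of the treated PRC1CPM libraries, with TMM, with no filter and with a pseudocount of 0.1. The sum was 2787 to 7223 before and 4989 to 5967 after OHT in PRC1CKO cells, and 4720 to 16651 and 6401 to 18330 in PRC1CPM cells, highest in replicate 1 of every condition. The HoxC sum was likewise highest in replicate 1 of every condition. So were the sums of the HoxA, HoxB and HoxD genes, the Hox activators, the TALE cofactors and the motor neuron genes. Without Hoxc13 the HoxC sums in untreated PRC1CPM cells were 39.6, 33.9 and 42.0, highest in replicate 3. The part of these cell types in the HoxC levels was not tested.

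Finally, the genes outside the Hox clusters whose profile over the 12 libraries was most like the mean HoxC profile (of the genes' standardised log2 levels) were Edil3 (Pearson r = 0.987), Rftn2 (0.985), Hmx2 (0.985), Col4a1 (0.984) and Fabp5 (0.983). The 12 libraries share 4 conditions, so r mostly follows the condition means. All 5 were called higher after OHT in both lines, with log2 changes of 1.37 to 4.33 in PRC1CKO and 0.88 to 3.38 in PRC1CPM cells. They were chosen for likeness to a profile that rises after OHT, so these calls are no separate result. Among the members themselves, r with the same mean was 0.973 for Hoxc9 and lowest for Hoxc12 (0.770) and Hoxc11 (0.782).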

How the data were processed

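cRNA-seq libraries from 12 samples were used, grouped by line, treatment and replicate in their labels. Per the study's methods, the authors removed rDNA reads with Bowtie 2 and aligned the rest to mm10 and dm6 with STAR and Bowtie 2. They kept unique reads, deduplicated with Sambamba, and obtained read counts for a set of 20633 genes, here called transcripts. That the counts cover whole gene bodies was inferred here. The deposited values are a normalised signal, the read counts divided by a DESeq2 size factor from Drosophila reads corrected by gDNA. Dividing each library by the value of 1 read gave whole reads for 100% of values (tolerance 0.02). The table also holds the authors' fold changes and adjusted p-values for 4 comparisons, and a second file lists their partially derepressed transcripts, and neither was used. The 12 gDNA samples were not analysed here.

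Transcripts were kept if 3 or more libraries had 10 or more reads (16940), and limma 3.58.1 (R 4.3.3) was run on their log2(normalised read count + 1), with 1 mean per condition over the 12 libraries, moderated towards a trend, with p-values adjusted over all transcripts by Benjamini-Hochberg. A call required a fold change over 1.5 with adjusted p below 0.05, or the latter alone for the interaction. The fit was tested on simulated data. The study's methods call the replicates biological without saying how they were separated, and each line is 1 clone, so p-values measure the spread between these samples. Same-numbered libraries deviated together from their group means, with every one of 3 correlations over 0.1 in PRC1CPM (lowest 0.246), between the treated lines (0.140) and between the untreated lines (0.186), so the numbers were taken to pair these samples, on the data alone. In PRC1CKO 1 of 3 fell just short (0.0988). The main fit did not use this pairing, so calls, SEs and intervals ignore it unless the block is named. With the block, 4 HoxC genes were called lower in treated PRC1CPM than in treated PRC1CKO cells, in place of 1. Between the untreated lines 1 was then called, in place of 0. Correlations of different numbers averaged -0.102, a value largely set by centring on the group means, so it is no separate evidence of pairing. Alternatives were edgeR 4.0.16 and DESeq2 1.42.0 on the recovered reads, TMM, no gDNA correction, no filter, another pseudocount (0.1), a block for replicate number, each line alone, other thresholds and each of the 12 libraries left out, with levels per kb of exon added after seeing the data. The genes named are the 9 HoxC genes, the engineered genes, the transcripts inside and the 5 on each side of the cluster, the paralogues, the called members of the lists (mostly at most 4 per list) and the 5 most alike profiles, with a few list members added after their values were seen. Members and lists were chosen with earlier results of these data known. Positions have 1 added to the deposited start. Sequence came from GRCm38 with RefSeq annotation. Python 3.11.15, numpy 2.4.6, pandas 2.3.3, scipy 1.17.1, pysam 0.24.0 and matplotlib 3.10.9 were used.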

Additional observations from a re-analysis of the deposited data

Results flagged for a closer look

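Hotair, which was left out of the tests because it fell below the filter, had 22 reads summed over the 3 OHT-treated PRC1CKO libraries, against 0 in the 3 untreated libraries of that line. It is given because reads appeared in all 3 treated and in none of the untreated libraries. The treated libraries had 5.42, 3.70 and 10.47 normalised reads, and 0 reads allow up to 8.94, 4.62 and 5.07 (3 read pairs) in the untreated ones, so the ranges overlap at this depth, and the difference was not tested.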

How the results depend on the processing

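The counts of HoxC genes called higher after OHT stayed within 1.5 times under all alternatives run: 8 or 9 in PRC1CKO and 6 in PRC1CPM cells, and 7 to 9 and 5 to 6 with a library left out. Those of HoxA, HoxB and HoxD genes were 19 to 25 and 23 to 25, and 19 to 25 and 21 to 25 with a library left out. The count called lower in treated PRC1CPM than in treated PRC1CKO cells, 1, was 3 with DESeq2, 3 with TMM, 2 with edgeR, 0 with a pseudocount of 0.1 and 0 at an adjusted p under 0.01, and 0 to 3 with a library left out. The cause was not tested. No interaction was called under any alternative, and without a library it was 0 to 0. The untreated lines gave 0, but 1 with TMM. With the replicate number as a block, 4 HoxC genes were lower in treated PRC1CPM cells and 1 (Hoxc13) differed between the untreated lines, and it changed no other HoxC count. Without the gDNA correction the median change of all transcripts moved from 0.12 to -0.04 in PRC1CKO and from 0.10 to 0.39 in PRC1CPM cells. Over all transcripts, 37 were called lower in treated PRC1CPM cells, but 261 with TMM, 232 with the block, 85 with DESeq2, 59 with edgeR, 24 with a pseudocount of 0.1 and 21 with no filter or no gDNA correction. The count higher there, 212, was 1131 with the block, 524 with TMM, 441 without the gDNA correction, 344 with DESeq2, 136 with no filter and 81 to 399 with a library left out. The interaction called 4, but 15 with DESeq2, 14 with TMM, 0 with no filter, 1 with a pseudocount of 0.1, 2 above and 1 below 0 without the gDNA correction and, with the block, 78 above and 246 below 0. Between the untreated lines 374 were higher and 81 lower in PRC1CPM, but 745 and 305 with TMM, 1631 and 253 with the block, 243 and 62 with no filter, 130 and 148 without the gDNA correction, and 1492 and 78 without replicate 1 of untreated PRC1CKO cells. Without any other untreated library the higher count was 170 to 616. With a library left out the interaction called 1 to 28 below 0, and the counts lower after OHT were 326 to 674 in PRC1CKO and 123 to 339 in PRC1CPM cells, and 823 and 461 with the block. With TMM the calls after OHT were 2845 higher and 1133 lower in PRC1CKO (2787 and 524 with the spike-in) and 2396 and 595 in PRC1CPM cells (2226 and 237), and 3428 and 68 in PRC1CPM cells without the gDNA correction.

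Of 873 single-gene log2 differences under the alternatives, 807 kept their direction and call, 16 lost the call, 16 gained one and 34 turned sign, none of them a called value. The interaction of Hoxc8, near 0, was 0.33 with DESeq2, 0.26 with edgeR, 0.0005653 with TMM, 1.06 with a pseudocount of 0.1 and 0.29 without the gDNA correction, that of Hoxc6 was -0.0615 with TMM, and Hoxc11 in the untreated lines was 0.24 with DESeq2 and 0.19 with edgeR. With a library left out, the interaction ran from -0.57 to 0.50 for Hoxc8, -0.98 to 0.95 for Hoxc6 and -0.30 to 0.31 for Hoxc4, the untreated difference from -0.58 to 0.11 for Hoxc12, -0.745 to 0.735 for Hoxc11 and -0.87 to 0.34 for Hoxc9, and the change in PRC1CPM cells from -0.20 to 0.80 for Hoxc12 and -0.51 to 0.97 for Hoxc11. Depth limits the untreated levels of Hoxc11 to Hoxc4, at 0 to 14 reads.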
